A study of Mus musculus with 4 samples.

Results

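Osteopontin, the secreted phosphoprotein encoded by Spp1, and the genes for 5 of its receptor chains (Cd44, Itgav, Itgb1, Itgb3 and Itgb5) were followed in single CD11b+ cells of the mouse corpus callosum. The 6 genes were taken by symbol, and all 6 were listed in each of the 4 count tables, which together list 16342 genes. The week 5 cuprizone group (2 libraries) was compared with the week 0 group, not treated (2 libraries). All animals were male C57BL/6 mice aged 13 weeks with no transgene named, and live nucleated single cells carrying CD11b, a myeloid integrin chain, were collected by flow cytometry. Cuprizone is a copper chelator that kills oligodendrocytes and so strips axons of myelin. Whether each library is 1 animal, or several pooled, is not given in the labels. The p-values therefore measure only how these libraries vary, which can be technical variation.

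Osteopontin is released by bone cells, activated macrophages and some microglia, and it acts on cells that carry its receptors. A short arginine-glycine-aspartate motif in osteopontin is bound by integrins that pair the alpha v chain (Itgav) with a beta chain such as beta 1 (Itgb1), beta 3 (Itgb3) or beta 5 (Itgb5). CD44, the hyaluronan receptor, binds osteopontin outside that motif. In microglia, Spp1 is known as a gene of the lipid-loaded, phagocytic state seen in developing white matter and around demyelinated lesions. An alpha chain reaches the cell surface only with a beta chain, so that the level of 1 chain's transcript does not give the level of the receptor.

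The codons for the motif that the integrins read are shown because they join the ligand to 4 of the 5 receptor genes. In the annotated mouse transcript Spp1-205 (GENCODE M21, GRCm38), whose reading frame has 310 residues, the motif was found 1 time, at residues 160 to 162. The capitals mark its codons, and 30 bases stand on either side.
Spp1 coding sequence: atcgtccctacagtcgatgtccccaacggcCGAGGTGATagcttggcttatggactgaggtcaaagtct

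The stretches of 250 bases before the gene start are shown for Spp1 and Itgav because Spp1 is the ligand and Itgav was the 1 receptor gene called lower in the week 5 cells in which Spp1 was detected, as described further on. The sequences are from RefSeq (GRCm38.p6), which had an entry for 5 of the 6 genes, all but Itgb3. The Spp1 stretch is chr5:104434861-104435110 on the plus strand and the Itgav stretch is chr2:83724147-83724396 on the plus strand. Capitals mark every match, on either strand, to 6 short motifs. These were GAGGAAGT for PU.1, ACCACA for RUNX factors, TGACTCA for the factor AP-1, CACGTG for MITF with its relatives, the shorter core CACATG of a related element, and TATAAA, the TATA box.
Spp1 upstream: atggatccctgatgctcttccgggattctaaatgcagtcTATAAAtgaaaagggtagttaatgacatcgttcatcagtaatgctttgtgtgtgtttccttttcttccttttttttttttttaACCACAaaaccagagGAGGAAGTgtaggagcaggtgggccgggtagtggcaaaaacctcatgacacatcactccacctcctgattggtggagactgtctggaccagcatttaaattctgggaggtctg
Itgav upstream: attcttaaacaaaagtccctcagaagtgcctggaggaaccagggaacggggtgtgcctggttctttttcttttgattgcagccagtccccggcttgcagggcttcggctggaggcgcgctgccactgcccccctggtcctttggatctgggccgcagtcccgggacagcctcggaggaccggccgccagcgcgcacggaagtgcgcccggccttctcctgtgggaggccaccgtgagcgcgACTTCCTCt

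The Spp1 stretch held 3 matches, none overlapping another: TATAAA from base -211, ACCACA from base -128 and GAGGAAGT from base -113, counted back from the start. The Itgav stretch held GAGGAAGT on the minus strand, from base -9. The Cd44, Itgb1 and Itgb5 stretches held 0 matches. RefSeq also gives another Spp1 start, whose stretch (chr5:104435942-104436191, not shown) held 0 matches. Of 32851 promoters of the same length in the RefSeq table, 2.44% held GAGGAAGT, 14.0% ACCACA and 12.4% TATAAA. For the other motifs the shares were 4.46% for TGACTCA, 6.02% for CACGTG and 12.3% for CACATG. A match is a string of letters, and binding was not measured here.

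The genes lie on 5 chromosomes of GRCm38: Spp1 at chr5:104435118-104441050, Cd44 at chr2:102811141-102901665, Itgav at chr2:83724397-83806916, Itgb1 at chr8:128685654-128733200, Itgb3 at chr11:104608000-104670476 and Itgb5 at chr16:33829665-33949338. Cd44 is on the minus strand and the others are on the plus strand. The annotated gene Gm13684 overlaps Itgav and is listed in the tables. No source used here says whether the counting used strand, so reads of these 2 genes may not be told apart.

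The deposited tables held 1000 barcodes each, with 6559032 and 3322818 UMIs (unique molecular identifiers, counts of single transcript molecules) at week 5 and 2415001 and 4631622 at week 0. After filtering, 956 and 914 cells were used at week 5 and 925 and 909 at week 0, 3704 of 4000 in all. Any pair of libraries shared at most 2 barcodes. The labels call the cells microglia and macrophages. All 14 microglia markers were present in every library, and their sum ranged from 21033 to 25725 UMIs per 1000000 at week 5 and from 35003 to 40901 at week 0. Microglia-like clusters held 94.7% and 93.2% of the cells at week 5 and 97.4% and 99.1% at week 0, and a cluster led by Mrc1 carried markers of border-associated macrophages (77 cells). Signs of other cell types differed between libraries. Summed markers of T and NK cells stood at 3.27 and 182 UMIs per 1000000 at week 5 and 0.425 and 0 at week 0, and summed neutrophil markers stood at 290 UMIs per 1000000 in week 0 replicate 2 and at 0.425 to 2.49 in the others.

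Spp1 was close to absent from the sorted CD11b+ cells of untreated mice and abundant in those of mice under cuprizone. The week 5 libraries held 7363 and 1363 Spp1 UMIs, against 3 and 6 in the week 0 libraries. Scaled to the effective library size that edgeR's TMM factors give (counts per 1000000, CPM), Spp1 stood at 1368 and 412 CPM at week 5, against 1.18 and 1.24 CPM at week 0. Both week 5 values lie far above both week 0 values, and the week 5 libraries also lie far apart from each other. The mean was 890 ± 676 CPM at week 5 and 1.21 ± 0.0432 CPM at week 0 (SD, n = 2 each). The log2 fold change was 9.48 (SE 0.76), with an adjusted p of 0.000479 in edgeR's quasi-likelihood test over 11250 genes. From the summed counts, week 5 had 688 times the week 0 share of UMIs, with an exact 95% interval of 362 to 1505 that covers counting error only. In such sums, fewer cells with a transcript and less of it per cell cannot be told apart.

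Spp1 was the 1 member of 6 called higher in all cells, where 2.33% of all genes tested were called higher, 0.204% lower and 2.53% in either direction. Median log2 fold changes were -0.11 over the 6 members and -0.01 over all genes tested.

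Cd44 stood at 36.2 and 10.6 CPM at week 5, against 7.06 and 1.44 CPM at week 0. The groups did not overlap, though the lower week 5 library and the higher week 0 library lie close together. The log2 fold change was 2.70 (SE 0.70; edgeR adjusted p = 0.0913). The counts behind it were small, with 195 and 35 UMIs at week 5 and 18 and 7 at week 0. Without week 5 replicate 1 the log2 fold change was 1.44 (edgeR adjusted p = 0.517), and without week 5 replicate 2 it was 3.35 (edgeR adjusted p = 3.75e-09). Without week 0 replicate 1 it was 4.02 (edgeR adjusted p = 0.00198), and without week 0 replicate 2 it was 1.76 (edgeR adjusted p = 0.265). Each such fit leaves 1 library in a group, which is assumed to vary like the libraries of the other group.

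At week 0 most Cd44 UMIs came from a few cells. A small cluster led by S100a6, with Ccl5, Nkg7 and Plac8, genes of lymphocytes and monocytes, among its first genes, held 6 and 17 cells at week 5 and 6 and 2 cells at week 0. Those cells carried 39 and 12 Cd44 UMIs at week 5 and 12 and 5 at week 0, so that 8 cells gave 68.0% of all Cd44 UMIs at week 0. Within the microglia-like clusters 10 to 12 of the 12 T and NK cell markers were at 0. In all cells 2 of them were detected in week 5 replicate 1, and 1 and 0 in week 0 replicates 1 and 2. In these libraries the markers thus could not show whether cells like those of the small cluster remained. Summed monocyte markers in the microglia-like clusters were higher at week 5. Scaled as the sums above, they stood at 28.6 and 25.6 at week 5 and 9.44 and 10.5 at week 0. Whether monocytes gave part of the Cd44 there was not tested. Cd44 in these clusters counted 149 and 22 UMIs at week 5 and 4 and 2 at week 0. In CPM this is 29.5 and 7.18 at week 5 and 1.65 and 0.418 at week 0, and the groups are well apart. The log2 fold change there was 4.42 (SE 0.78; edgeR adjusted p = 0.00843 over 11054 genes).

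By summed counts, Cd44 in microglia-like cells had 20.9 times the week 0 share of UMIs, with an exact counting interval of 9.42 to 57.9. The ratio was 27.3 for week 5 replicate 1 and 8.14 for week 5 replicate 2. Without week 5 replicate 1 the log2 fold change was 2.98 and the edgeR adjusted p was 0.203, so that the call rests on that library. It was also lost with limma-voom (adjusted p = 0.0911). In microglia-like cells 2 of 6 members, Spp1 and Cd44, were called higher, where 2.99% of all genes tested were.

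The 4 integrin chains did not pass the test. Itgav, the alpha v chain, stood at 92.0 and 107 CPM at week 5, against 172 and 161 CPM at week 0. Both week 5 values are below both week 0 values, with a log2 fold change of -0.74 (SE 0.21; edgeR adjusted p = 0.129). The beta 3 chain Itgb3 had the same shape at a lower level, with 19.5 and 16.0 CPM at week 5, against 33.0 and 34.1 CPM at week 0. Its log2 fold change was -0.91 (SE 0.23; edgeR adjusted p = 0.0819). In both genes the groups did not overlap. Of the 4 fits with 1 library left out, 1 called each gene. For Itgav this was the fit without week 5 replicate 2 (edgeR adjusted p = 0.0186), and the other 3 gave adjusted p-values of 0.252 to 0.489. For Itgb3 it was the fit without week 5 replicate 1 (edgeR adjusted p = 0.0449), and the other 3 gave 0.0812 to 0.336. Here too the lone library is assumed to vary like those of the other group. With library size alone in place of TMM factors, which moved the median of all genes to -0.24, Itgb3 was called (edgeR adjusted p = 0.0262), as it was with no gene filter (edgeR adjusted p = 0.0136) and with 1 upper limit of detected genes for cells of all libraries (edgeR adjusted p = 0.0371).

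The beta 1 and beta 5 chains had the smallest log2 fold changes of the 6 genes. Itgb1, the common partner of many alpha chains, stood at 270 and 277 CPM at week 5, against 294 and 334 CPM at week 0. Its log2 fold change was -0.20 (SE 0.24; edgeR adjusted p = 0.811). Itgb5, which pairs with alpha v alone, stood at 1015 and 842 CPM at week 5, against 887 and 1002 CPM at week 0, and these values overlap. Its log2 fold change was -0.02 (SE 0.31; edgeR adjusted p = 0.985), and its sign turned with the scaling and the cells used. Within microglia-like cells the log2 fold change of Itgb5 was 0.03 with TMM factors and -0.21 with library size alone, a scaling that moved the median of all genes there by about as much, to -0.25 against -0.02. A p above the threshold does not show that these levels were equal.

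**Figure D1:**
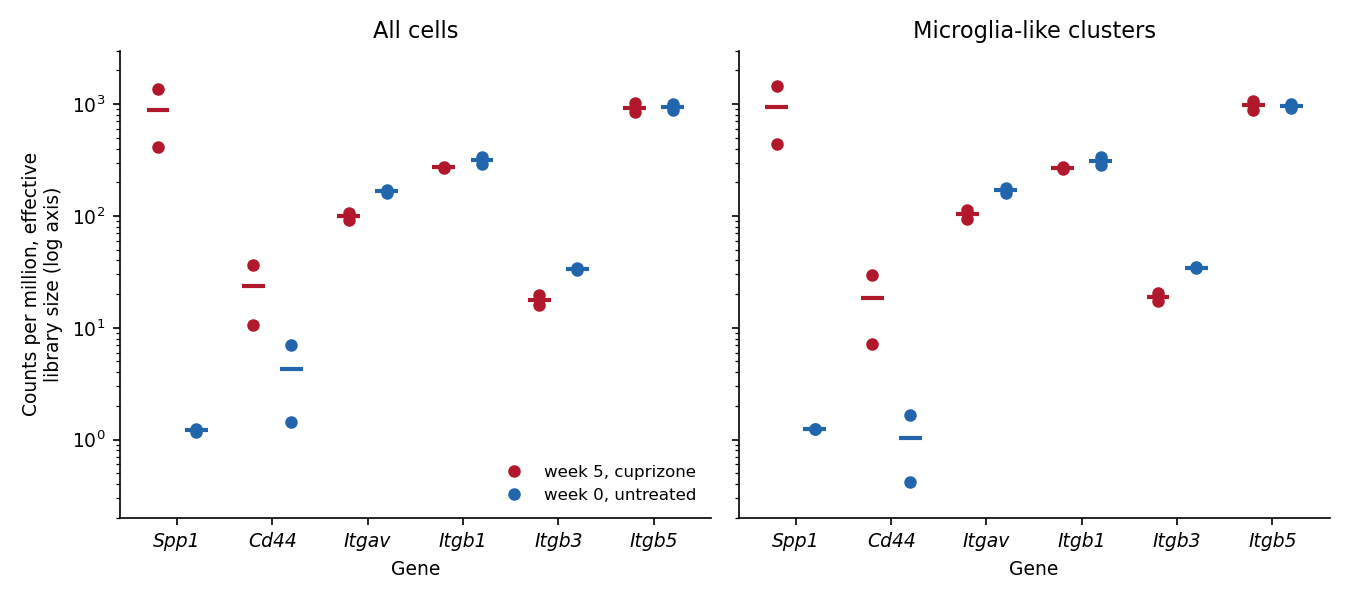
Levels of the 6 genes in counts per 1000000 of the effective library size (log axis), in all cells (left) and in the microglia-like clusters (right). Each point is 1 library and each bar the mean of 2, with week 5 cuprizone (red) left of week 0 untreated (blue). Spp1 stands at 1368 and 412 CPM at week 5 against 1.18 and 1.24 CPM at week 0 in all cells, and Cd44 separates further in the microglia-like clusters than in all cells.

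The share of cells with a UMI follows depth as well as level, since the median used cell held 6115 and 2496 UMIs in the week 5 libraries. Spp1 was detected in 28.3% and 8.64% of cells at week 5 and in 0.324% and 0.440% at week 0. Cd44 was detected in 11.5% and 2.74% of cells at week 5 and in 1.08% and 0.440% at week 0. In these 2 of 6 genes the libraries did not overlap (14.9% of the 11802 genes with a UMI in at least 1% of a library's cells did the same, 12.2% higher at week 5). The integrin chains overlapped: Itgb5 was detected in 88.6% and 75.9% of cells at week 5 and in 77.0% and 92.2% at week 0, and Itgav in 37.3% and 27.7% at week 5 and in 32.6% and 47.7% at week 0.

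Drawing 1000 UMIs from every cell, which kept 895 and 809 cells at week 5 and 780 and 839 at week 0, removed the overlap for every member. Spp1 was then detected in 14.4% and 6.67% of cells at week 5 and in 0.128% and 0% at week 0, where 0 of 839 cells allows a share of up to 0.358% (3 counts of the total). Cd44 was detected in 2.35% and 1.24% of cells at week 5 and in 0.769% and 0% at week 0. Itgav was detected in 9.27% and 10.8% of cells at week 5 and in 17.6% and 15.3% at week 0. Itgb1 was detected in 22.0% and 20.8% at week 5 and in 28.1% and 30.2% at week 0, Itgb3 in 1.79% and 1.85% at week 5 and in 4.10% and 3.69% at week 0, and Itgb5 in 55.4% and 56.1% at week 5 and in 59.4% and 65.4% at week 0. All 4 integrin chains thus had their lower shares at week 5 at this depth. At 2000 UMIs per cell, a depth added after seeing the data that kept 721 and 491 cells at week 5 and 328 and 758 at week 0, the libraries did not overlap in 4 of 6 genes (46.1% of 10790 genes did the same). Cd44 overlapped, at 5.41% and 1.22% of cells at week 5 and 1.52% and 0.132% at week 0, and so did Itgb1, at 36.6% and 43.4% at week 5 and 42.1% and 51.6% at week 0.

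Of all 9695 genes with a UMI in at least 1% of a library's thinned cells, 38.1% had libraries that did not overlap between weeks, 26.4% lower at week 5 and 11.8% higher. An exact two-sided permutation test over 2 against 2 libraries cannot go below p = 0.333, and it gave 0.333 for each of the 6 genes. Cells with a UMI of both Itgav and Itgb5, the chains of 1 receptor, made up 5.14% and 6.30% of cells thinned to 1000 UMIs at week 5 and 11.2% and 10.3% at week 0. The product of the 2 single shares was close to these, at 5.14% and 6.04% at week 5 and 10.4% and 9.98% at week 0. Cells with Itgav and Itgb1 made up 2.35% and 2.47% at week 5 and 5.26% and 5.01% at week 0. Cells with Itgav and Itgb3 were rare in both, at 0% and 0.371% at week 5 and 0.769% and 0.596% at week 0.

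Spp1 transcripts were concentrated in few cells. In week 5 replicate 1 the 10 cells with the most Spp1 held 44.7% of the library's Spp1 UMIs, and in replicate 2 the 10 highest held 81.6%. The highest cells carried 623 and 698 Spp1 UMIs, while the median cell with any carried 3 and 2. Those highest cells held 8.46% and 51.2% of their library's Spp1 UMIs. At the other end, 96 of 271 Spp1-detected cells in replicate 1 and 32 of 79 in replicate 2 carried exactly 1 UMI. At week 0, 7 cells carried Spp1, and the highest of them had 3 UMIs.

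**Figure D2:**
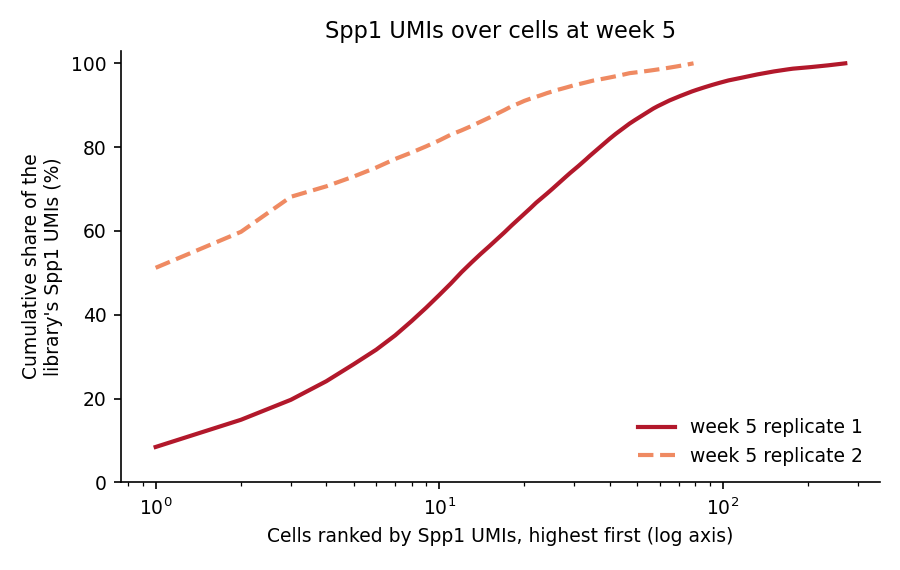
Cumulative share of each week 5 library's Spp1 UMIs (vertical axis, percent) over its cells ranked from the highest Spp1 count down (horizontal axis, log scale). After 10 cells the line stands at 44.7% in replicate 1 (solid) and at 81.6% in replicate 2 (dashed).

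The cells were clustered without the 6 genes, so that their levels could be read across 13 clusters, named here by the gene that led each. Spp1 was highest in the Fabp5-led cluster, which also had Apoc1, Apoc4, Cst7 and Gpnmb, genes of the lipid-handling microglial state, among its first genes. It stood there at 2528 and 4588 UMIs per 1000000 (of all UMIs of the cells concerned) in the week 5 libraries, and 75.0% and 56.1% of the 204 and 41 cells had a UMI. This cluster held 21.3% and 4.49% of the week 5 cells and 93.9% and 75.2% of their Spp1 UMIs. It held 2 cells at week 0, 1 of them with 1 Spp1 UMI. Its cells were deep, with a median of 13507 and 4914 UMIs at week 5. The microglia markers summed to 12442 UMIs per 1000000 in it, the lowest of the microglia-like clusters and below the 41919 of the Gp9-led cluster, which held most week 0 cells of replicate 2.

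The Ccl4-led cluster, with Ccl3, Ccl2 and Egr1, came next at 765 and 1142 UMIs per 1000000, and it gave 4.52% and 22.3% of the Spp1 UMIs at week 5. The Insyn2b-led cluster, of shallow cells, followed at 267 and 0 UMIs per 1000000, on 13 and 0 UMIs. The Ddit4-led cluster, the largest at week 5 with 335 and 254 cells, stood at 28.9 and 10.8 UMIs per 1000000. The Mrc1-led macrophage cluster stood at 60.4 and 28.2 UMIs per 1000000, with Spp1 in 6 of 29 and 2 of 26 cells. The 3 clusters named neither microglia-like nor macrophage-like had, in sum, Spp1 in 1 of 22 and 1 of 36 cells, each with 1 UMI. Their shares were 4.55% and 2.78%, with exact 95% intervals of 0.115% to 22.8% and 0.0703% to 14.5%, at median depths of 6735 and 2969 UMIs. They serve as a rough gauge of how often free RNA gives a UMI, which was not measured. With so few cells the intervals are wide, and a modest share could not exceed them. The Ddit4-led shares of 13.4% and 4.33%, at median depths of 6426 and 5863 UMIs, do not lie above those intervals. Nor do the Mrc1-led shares of 20.7% and 7.69% or the Insyn2b-led shares of 14.0% and 0%. In these clusters expression was thus not told apart from free RNA. The Fabp5-led and Ccl4-led shares lie above the intervals.

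Replicate 1 had 204 cells of the Fabp5-led cluster and replicate 2 had 41, while the level in that cluster was higher in replicate 2. Of the 1025 Spp1 UMIs of that cluster in replicate 2, 698 came from 1 cell, so that the higher level depends largely on that cell. The share of the cluster's cells with Spp1 was lower in replicate 2, at 56.1% against 75.0%. Deposited cells reached at most 3999 genes in replicate 1 and 2996 in replicate 2. A limit of 2996 genes kept 776 of the 956 used cells of replicate 1. How far this limit bears on the number of Fabp5-led cells was not tested. Without this cluster the log2 fold change of Spp1 between week 5 and week 0 was 6.70 in all cells and 6.76 in microglia-like cells, and its call remained in both.

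The receptors were spread differently over the clusters. Cd44 stood at 38.4 and 13.4 UMIs per 1000000 in the Fabp5-led cluster and at 36.8 and 22.5 in the Ccl4-led cluster at week 5, on 105 and 3 and on 16 and 6 UMIs. It stood at 9.94 and 6.07 UMIs per 1000000 in the Ddit4-led cluster and at 0 in both libraries in the Gp9-led cluster, whose 29 and 26 cells allow up to 20.6 and 24.5 UMIs per 1000000, so that its level is not shown to be lower. In the S100a6-led cluster it reached 929 and 132 UMIs per 1000000 at week 5 and 369 and 468 at week 0.

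Itgav was low where Spp1 was high. It stood at 32.2 and 35.8 UMIs per 1000000 in the Fabp5-led cluster at week 5 and at 62.1 and 75.2 in the Ccl4-led cluster. In the Ddit4-led cluster Itgav stood at 111 and 110 UMIs per 1000000 at week 5 and at 204 and 119 at week 0. In the Gp9-led cluster it stood at 123 and 139 at week 5 and at 149 and 165 at week 0. The 2 clusters richest in Spp1 thus had the lowest Itgav of the microglia-like clusters in both week 5 libraries, and the Mrc1-led macrophages were as low, at 32.9 and 28.2 UMIs per 1000000.

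Itgb5 stood between 618 and 1202 UMIs per 1000000 in every microglia-like cluster at week 5, at 401 and 404 in the Mrc1-led cluster (500 and 895 at week 0) and at 119 and 11.0 in the S100a6-led cluster. Itgb1 stood at 163 and 224 UMIs per 1000000 in the Fabp5-led cluster and at 281 and 262 in the Ddit4-led cluster. Itgb3 was at 7.31 and 0 UMIs per 1000000 in the Fabp5-led cluster and at 23.9 and 18.2 in the Ddit4-led cluster. The clusters are built from other genes of the same cells, so these levels are a description and were not tested.

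**Figure D3:**
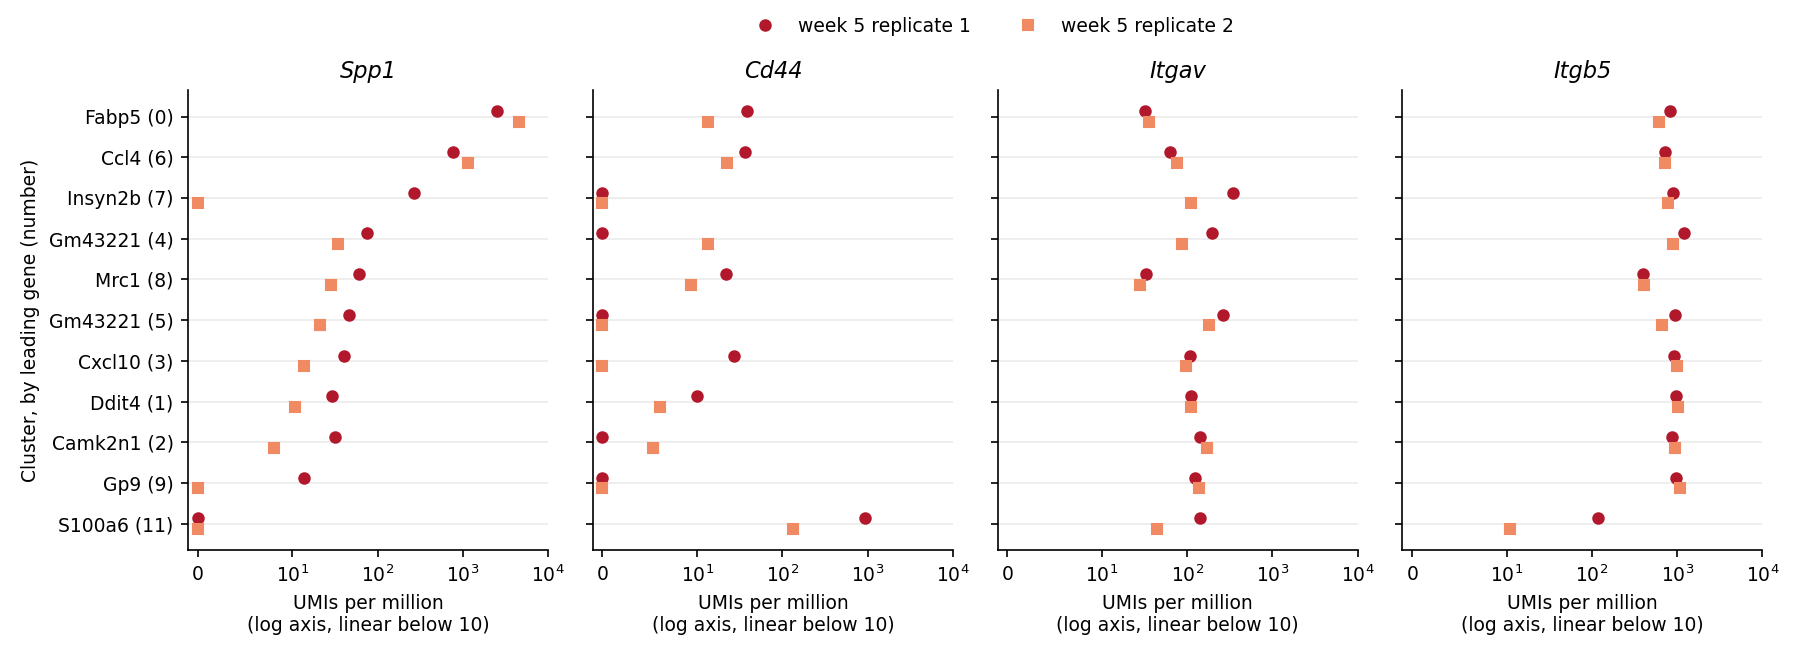
Level of Spp1, Cd44, Itgav and Itgb5 in UMIs per 1000000 (log axis, linear below 10) in the clusters of the week 5 libraries, ordered by mean Spp1 level, for clusters with at least 10 cells in each library and the S100a6-led cluster. Each point is 1 library (circles, replicate 1 and squares, replicate 2). Spp1 is highest in the Fabp5-led and Ccl4-led clusters, where Itgav is low, and Cd44 is highest in the S100a6-led cluster.

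Whether cells with an Spp1 UMI also held UMIs of the receptor genes was read within each week 5 library. Such a UMI does not show that a cell makes the transcript: 45 of the 271 and 11 of the 79 Spp1-detected cells were in the Ddit4-led cluster. Cd44 was found in 22.5% of Spp1-detected cells and 7.15% of Spp1-undetected cells in replicate 1 (61 of 271 and 49 of 685), with exact 95% intervals of 17.7% to 28.0% and 5.34% to 9.35%. In replicate 2 it was found in 8.86% and 2.16% (7 of 79 and 18 of 835), with intervals of 3.64% to 17.4% and 1.28% to 3.39%. Itgav was found in 32.1% of Spp1-detected cells and 39.4% of Spp1-undetected cells in replicate 1, and in 16.5% and 28.7% in replicate 2. In cells with at least 2 Spp1 UMIs (175 and 47 cells), Cd44 was found in 27.4% and 14.9% and Itgav in 32.6% and 17.0%. In microglia-like clusters alone, Cd44 was found in 23.1% of Spp1-detected and 6.40% of Spp1-undetected cells in replicate 1. In replicate 2 these shares were 9.21% and 1.55%. Itgav was found there in 33.0% and 40.1% in replicate 1 and in 17.1% and 29.8% in replicate 2. Intervals here and below cover counting error only, and cells of 1 library are not replicates.

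Among the beta chains, Itgb1 was found in 74.9% of Spp1-detected cells and 58.7% of Spp1-undetected cells in replicate 1 and in 53.2% and 47.5% in replicate 2. Itgb5 was found in 94.1% and 86.4% in replicate 1 and in 82.3% and 75.3% in replicate 2. Itgb3 was found in 10.3% and 8.18% in replicate 1 and in 2.53% and 5.63% in replicate 2. In all, 7 of 10 receptor and library pairs had the higher share in Spp1-detected cells. Those cells were deeper, with median depths of 9968 UMIs against 5315 UMIs in replicate 1 and 2901 UMIs against 2456 UMIs in replicate 2. Of 7363 genes, 90.7% had the higher share in Spp1-detected cells in replicate 1 and 45.7% in replicate 2.

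At 1000 UMIs per cell, 4 of 10 pairs had the higher share in Spp1-detected cells, where 33.7% of 2937 genes in replicate 1 and 33.2% in replicate 2 did. Cd44 was among them in both libraries, at 3.88% and 2.09% in replicate 1 and at 5.56% and 0.927% in replicate 2, on 5 and 3 Spp1-detected cells with Cd44. Its intervals overlapped in both libraries, at 1.27% to 8.81% for Spp1-detected and 1.20% to 3.37% for Spp1-undetected cells in replicate 1 and at 1.16% to 15.4% and 0.374% to 1.90% in replicate 2. Itgav was lower in both, at 3.88% in Spp1-detected cells and 10.2% in Spp1-undetected cells in replicate 1 and at 3.70% and 11.3% in replicate 2. The intervals for Itgav overlapped in both libraries, narrowly in replicate 1, at 1.27% to 8.81% for Spp1-detected cells and 8.13% to 12.5% for Spp1-undetected cells. Itgb5 was found in 48.8% and 56.5% in replicate 1 and in 50.0% and 56.6% in replicate 2. The median difference over the 2937 genes compared at this depth was -1.53 points in replicate 1 and -2.26 points in replicate 2, against -6.31 and -7.55 points for Itgav. At 2000 UMIs per cell the Itgav differences were -6.06 and -4.28 points, where the median over 4967 genes was -1.96 and -3.55 points, so that Itgav lay near the median in replicate 2. Cd44 was then at 5.80% in Spp1-detected and 5.32% in Spp1-undetected cells of replicate 1 and at 3.03% and 1.09% in replicate 2.

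**Figure D4:**
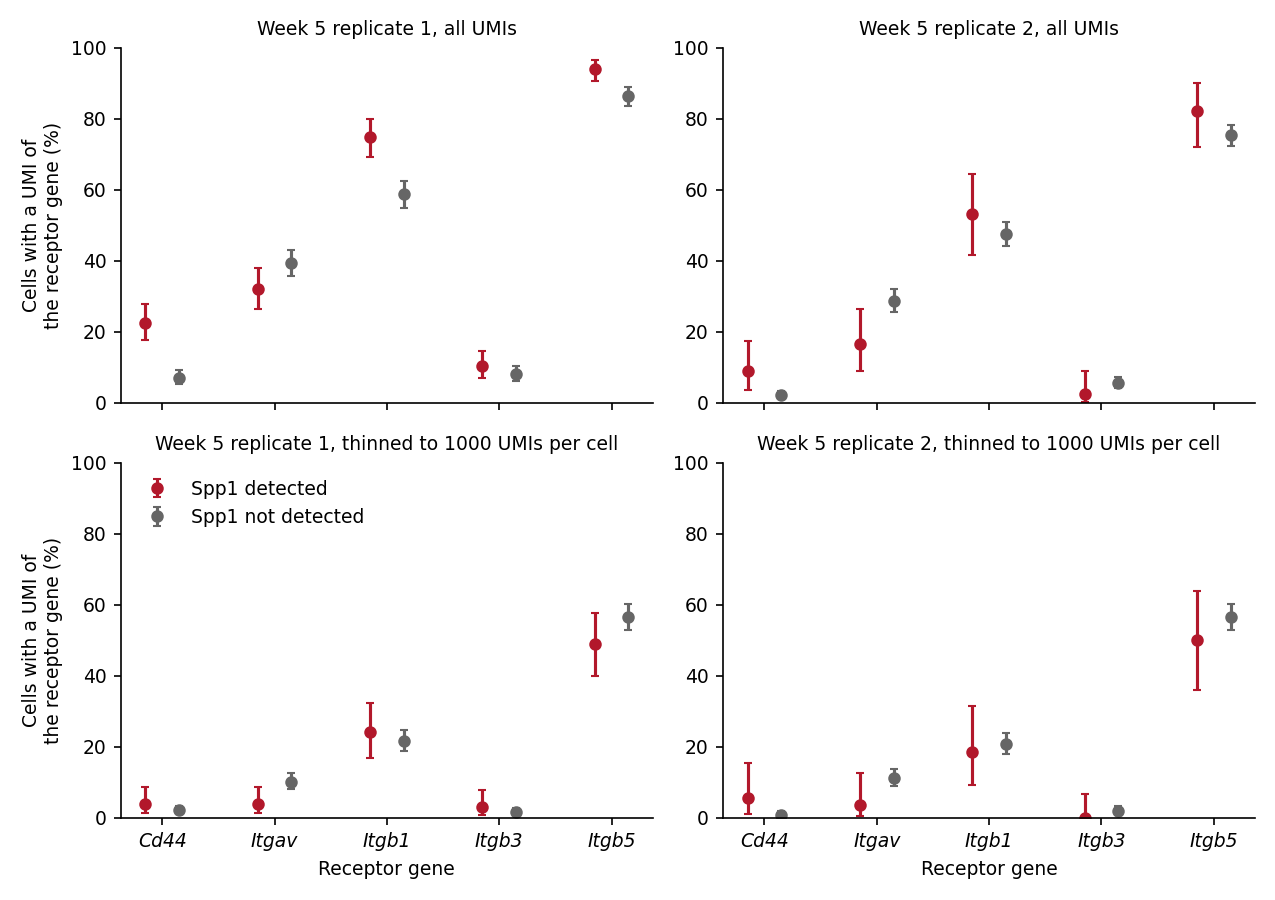
Share of cells with a UMI of each receptor gene (percent) among cells with Spp1 (red) and without Spp1 (grey) in the week 5 libraries, with exact 95% binomial intervals, from all UMIs (top) and after thinning to 1000 UMIs per cell (bottom). Cd44 is higher and Itgav lower in Spp1-detected cells in all 4 panels, with overlapping intervals after thinning, while Itgb5 is higher in them before thinning and lower after it.

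The counts of Spp1-detected and Spp1-undetected cells were then summed within each week 5 library and compared with edgeR, with the library as a block and Spp1 itself left out. These sums leave few residual degrees of freedom once the library block is fitted. The p-values of this comparison, here and below, thus rest largely on a variance pooled over genes. They do not measure variation between animals. Cd44 stood at 40.3 and 28.0 CPM in Spp1-detected cells and at 26.2 and 7.50 CPM in Spp1-undetected cells of replicates 1 and 2. The log2 fold change was 0.86 (SE 0.29; edgeR adjusted p = 0.0195). The S100a6-led cells, with 20.0% and 34.3% of the Cd44 UMIs of replicates 1 and 2 and 0 Spp1 UMIs, are among the Spp1-undetected cells. Itgav stood at 50.6 and 74.6 CPM in Spp1-detected cells and at 97.8 and 94.9 CPM in Spp1-undetected cells. It was lower in both libraries, with a log2 fold change of -0.78 (SE 0.19; edgeR adjusted p = 0.000433).

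The other chains did not pass the test in this comparison. The log2 fold changes were -0.04 (SE 0.15) for Itgb1, -0.66 (SE 0.37) for Itgb3 and 0.19 (SE 0.14) for Itgb5, and edgeR adjusted p-values ran from 0.237 to 0.916. The background was high: 17.0% of 10635 genes were called, 10.3% higher and 6.71% lower, so that 1 call in each direction among 5 receptors says little beyond it. Both calls were lost at 1000 UMIs per cell, where the log2 fold changes were larger, 1.50 for Cd44 (edgeR adjusted p = 0.337) and -1.20 for Itgav (edgeR adjusted p = 0.187). Itgav was not called by DESeq2 either (adjusted p = 0.313). With library size alone in place of TMM factors the median of all genes moved to -0.42 against -0.05, and Cd44 was no longer called, at 0.50 (edgeR adjusted p = 0.176). With that scaling Itgb1 was called at -0.40 (edgeR adjusted p = 0.0305) and Itgb3 at -1.02 (edgeR adjusted p = 0.0207), while the Itgb1 value lies at the shifted median.

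In replicate 1 Itgav was lower in every class of Spp1-detected cells than in cells with no Spp1. There Itgav stood at 104 UMIs per 1000000 in cells with no Spp1, 47.1 in cells with under 2 Spp1 UMIs per 10000 UMIs, 47.3 with 2 to 10 and 31.5 with 10 or more. The exact 95% counting interval of the first, 94.1 to 115, lies above that of the last, 21.3 to 45.0. In replicate 2 the same order of classes gave 113, 127, 42.9 and 57.7 UMIs per 1000000, on 329, 11, 6 and 7 UMIs. In week 5 cells with no Spp1, Itgav stood at 104 and 113 UMIs per 1000000, against 186 and 172 in all cells at week 0.

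Over all cells, Cd44 gave no such order in replicate 1. It stood at 28.0, 30.7, 36.8 and 32.6 UMIs per 1000000 over the same 4 classes in replicate 1, whose intervals overlap. In replicate 2 it stood at 8.93, 0, 42.9 and 24.7 UMIs per 1000000 on 26, 0, 6 and 3 UMIs. The class with no Spp1 includes all S100a6-led cells, which held 0 Spp1 UMIs. They held 20.0% of the Cd44 UMIs of replicate 1 and 34.3% of those of replicate 2, which raises the Cd44 level of that class. The order of Cd44 among microglia-like cells alone was not tested. Itgb1 was at 257, 223, 181 and 158 UMIs per 1000000 in replicate 1 and at 287, 312, 186 and 223 in replicate 2. Itgb5 was at 861, 944, 811 and 754 UMIs per 1000000 in replicate 1 and at 874, 764, 728 and 610 in replicate 2.

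**Figure D5:**
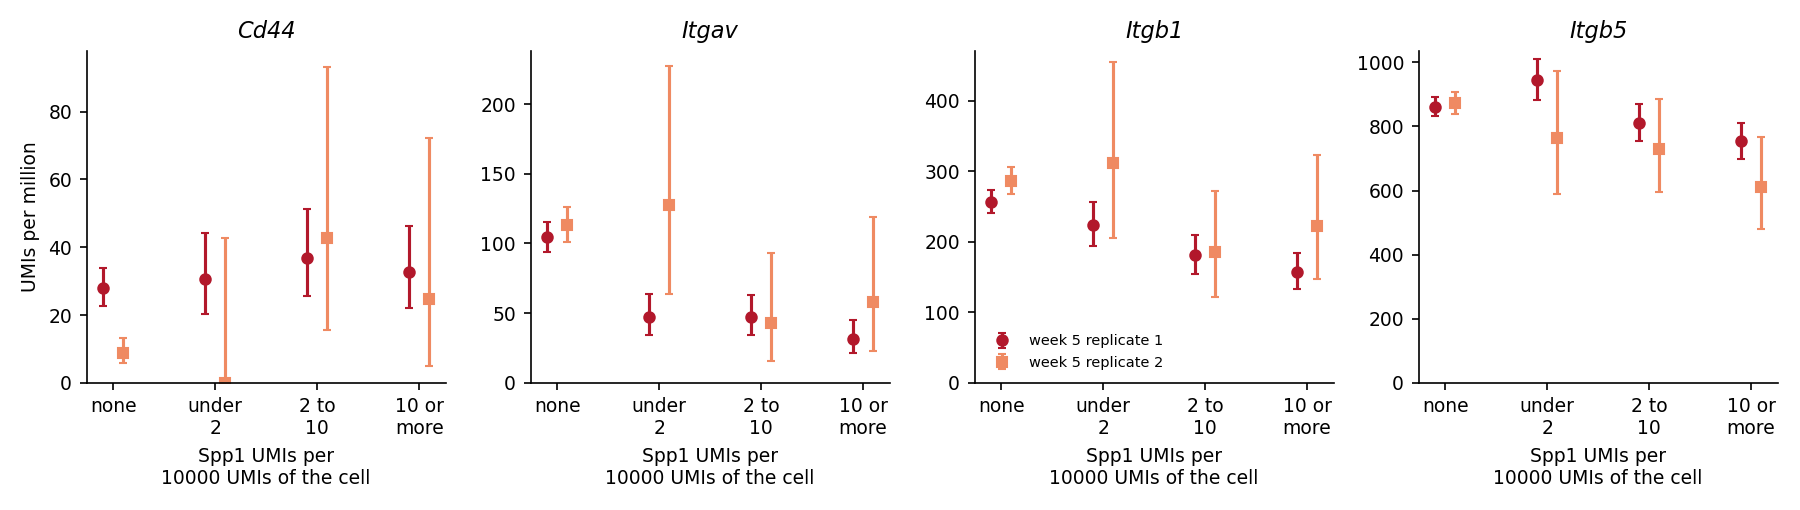
Levels of Cd44, Itgav, Itgb1 and Itgb5 in UMIs per 1000000 over cells of the week 5 libraries grouped by their Spp1 level (none, under 2, 2 to 10, and 10 or more Spp1 UMIs per 10000 UMIs), with exact 95% Poisson intervals for counting error. Itgav is lower in cells with 2 or more than in cells with none in both libraries, on 6 and 7 UMIs in the upper classes of replicate 2.

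The genes whose level followed Spp1 most closely over week 5 cells were Lpl (lipoprotein lipase), Fabp5 (a fatty acid carrier), Apoc1 and Apoe (apolipoproteins), Lgals3 (galectin 3), Igf1 (a growth factor), Itgax (the integrin chain CD11c), Clec7a (the receptor dectin 1), Crip1 and Cst7 (cystatin F). They are the first 10 of 7363 genes with a UMI in at least 5% of the cells of both libraries, ranked by the lower of the 2 libraries' Pearson correlations with Spp1 on log(1 + UMIs per 10000). For Lpl the correlations were 0.560 over 956 cells and 0.419 over 914 cells, and for Apoe 0.444 and 0.344. The median gene stood at -0.01 and -0.02. Cells share their library and differ in depth, and at 1000 UMIs per cell the Lpl values were 0.430 and 0.381.

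None of the receptors stood near the top of that order. Itgb5 was at place 2258, Itgb1 at 3106, Itgb3 at 4838 and Itgav at 7152 of 7363, with correlations of -0.13 and -0.07 for Itgav. Cd44, which is under 5% of cells in replicate 2, had correlations of 0.10 in both libraries. The 10 genes themselves were all called higher at week 5 in all cells, where 2.33% of all genes tested were. Their log2 fold changes ran from 3.33 (Crip1; edgeR adjusted p = 0.00236) to 10.39 (Apoc1; edgeR adjusted p = 0.00857). They were picked from week 5 cells of the same libraries by likeness to Spp1, itself higher at week 5. These calls thus follow in part from the choice and are not a separate result.

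Other genes of the osteopontin pathway were read from 6 lists. Of 11 osteopontin-binding integrin chains, a list that holds Itgav and Itgb1 too, 7 were tested in all cells. Of these, 1 was called higher, Itgax, where 2.33% of all genes tested were. It stood at 132 and 42.9 CPM at week 5, against 1.57 and 1.65 CPM at week 0 (log2 fold change 5.74, SE 0.62; edgeR adjusted p = 0.00204). The alpha 4 chain Itga4 was called in microglia-like cells, at 13.5 and 8.48 CPM at week 5, against 0.826 and 1.25 CPM at week 0 (edgeR adjusted p = 0.00412). In all cells Itga4 had 22.7 and 30.2 CPM at week 5, against 17.3 and 1.65 CPM at week 0 (edgeR adjusted p = 0.314). The median log2 fold change of the 7 was 0.14.

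Other genes tested encode enzymes that modify or cut osteopontin. Of 12, 7 were tested and 3 were called higher, with a list median of 0.79, where 2.33% of all genes were called higher. Fam20c, the kinase that phosphorylates osteopontin, stood at 52.6 and 34.8 CPM at week 5, against 3.14 and 2.89 CPM at week 0 (log2 fold change 3.87, SE 0.33; edgeR adjusted p = 0.00069). Mmp12, a macrophage metalloproteinase that cleaves it, stood at 22.7 and 17.8 CPM at week 5 and at 0 in both week 0 libraries (edgeR adjusted p = 0.000962). Acp5, a phosphatase that acts on it in bone, stood at 3.53 and 3.33 CPM at week 5 and at 0 in both week 0 libraries (edgeR adjusted p = 0.0393). DESeq2 called Fam20c and Mmp12 but not Acp5. In microglia-like cells 2 of 6 enzymes tested were called higher, Fam20c and Mmp12, where 2.99% of all genes tested were. Plau (urokinase), the next by level, had 44.2 and 32.7 CPM at week 5, against 22.8 and 22.1 CPM at week 0 (edgeR adjusted p = 0.149). Transglutaminase 2 (Tgm2), which cross-links osteopontin, had 13.8 and 20.0 CPM at week 5, against 31.0 and 32.2 CPM at week 0 (edgeR adjusted p = 0.106).

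Fam20c, Plau and Mmp12 were also called higher in Spp1-detected than in Spp1-undetected cells at week 5, 3 of the 6 enzymes tested, and Tgm2 was called lower. In this comparison 10.3% of all genes were called higher and 6.71% lower, and the counts of each list that follow stand against those shares. DESeq2 called the same 3 enzymes and gave no adjusted p for Tgm2. Fam20c stood at 87.0 and 137 CPM in Spp1-detected cells and at 20.7 and 20.5 CPM in Spp1-undetected cells. Mmp12 stood at 45.0 and 127 CPM in Spp1-detected cells and at 4.41 and 5.19 CPM in Spp1-undetected cells. Of the 7 integrin chains tested there, Itgax, Itga5 and Itgb2 were called higher, with log2 fold changes of 2.83, 0.97 and 0.40. Itga9, like Itgav, was called lower, at 19.3 and 9.32 CPM in Spp1-detected cells and 43.6 and 43.3 CPM in Spp1-undetected cells. DESeq2 called Itgax, did not call Itgb2 or Itgav, and gave no adjusted p for Itga5 or Itga9.

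Of 10 other ligands of alpha v integrins, 6 were tested in all cells and 0 were called by edgeR, limma-voom or DESeq2, with 2 at an unadjusted edgeR p under 0.05. Fibronectin (Fn1) had 138 and 10.6 CPM at week 5, against 3.92 and 0 CPM at week 0 (edgeR adjusted p = 0.0576). It was called in microglia-like cells, at 143 and 11.4 CPM at week 5, against 0.413 and 0 CPM at week 0 (edgeR adjusted p = 0.0066), though its week 5 libraries are far apart. It was also called higher in Spp1-detected cells, at 281 and 83.9 CPM, against 22.6 and 2.31 CPM in Spp1-undetected cells. Tgfb1, whose latent form is opened by alpha v integrins, was the highest of this list, at 304 and 300 CPM at week 5, against 336 and 436 CPM at week 0.

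Of 11 partners and other ligands of CD44, 7 were tested and 0 were called by edgeR in all cells, with 4 at an unadjusted p under 0.05, 0 called by limma-voom and 2 by DESeq2. In microglia-like cells edgeR called 2 of 7 higher, where 2.99% of all genes tested were. Cd74, the invariant chain that signals through CD44, stood there at 360 and 315 CPM at week 5, against 14.1 and 24.0 CPM at week 0 (log2 fold change 4.11, SE 0.31; edgeR adjusted p = 5.65e-05). Mif, the cytokine that binds CD74, stood at 456 and 134 CPM at week 5, against 80.2 and 66.4 CPM at week 0 (log2 fold change 2.02, SE 0.45; edgeR adjusted p = 0.0338). In all cells Cd74 stood at 503 and 897 CPM at week 5, against 275 and 115 CPM at week 0 (edgeR adjusted p = 0.0707). Moesin (Msn), which links CD44 to actin, was the highest other gene of this list in microglia-like cells, at 307 and 257 CPM at week 5, against 273 and 340 CPM at week 0. Within week 5, Cd74, Mif and serglycin (Srgn) were called higher in Spp1-detected cells and ezrin (Ezr) lower by edgeR. DESeq2 called Mif, did not call Cd74 or Srgn, and gave no adjusted p for Ezr.

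Among genes of integrin activation and adhesion signalling and transcription factors known to act on Spp1, edgeR called none between the weeks. This does not show that their levels were equal. Of 19 adhesion genes, which include the talins, kindlin 3 (Fermt3) and Syk, 16 were tested and 0 were called by edgeR in all cells or in microglia-like cells, with a median log2 fold change of -0.11 in all cells. In each of these comparisons 2 had an unadjusted edgeR p under 0.05, and 0 were called by limma-voom or DESeq2. The highest, Apbb1ip, an adaptor that carries Rap1 to talin, had 479 and 519 CPM at week 5, against 563 and 707 CPM at week 0. Of 13 transcription factors, 11 were tested and 0 were called by edgeR in all cells, with a median of 0.19. At an unadjusted edgeR p under 0.05 there were 3, and limma-voom called 0 and DESeq2 1, the immediate early gene Jun. Spi1, which encodes PU.1, had 320 and 246 CPM at week 5, against 275 and 384 CPM at week 0.

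Within week 5, edgeR called Mitf and Hif1a higher in Spp1-detected cells and Ets1 lower, 3 of 10 transcription factors tested, where 17.0% of all genes were called. DESeq2 called Hif1a and did not call Mitf or Ets1. Mitf, a regulator of lysosomal and osteoclast genes, stood at 81.9 and 115 CPM in Spp1-detected cells and at 54.7 and 51.9 CPM in Spp1-undetected cells (log2 fold change 0.77, SE 0.18; edgeR adjusted p = 0.000267). Hif1a, the hypoxia factor, stood at 358 and 221 CPM in Spp1-detected cells and at 145 and 114 CPM in Spp1-undetected cells (log2 fold change 1.17, SE 0.16; edgeR adjusted p = 4.64e-12). Of the adhesion genes, Tln2, Src and Syk were called lower in Spp1-detected cells, with log2 fold changes of -0.58, -1.11 and -0.58, and edgeR called none of the other adhesion genes. These are 3 of 16 tested, where 6.71% of all genes were called lower. DESeq2 called 0 of the list, with no adjusted p for Src, and 5 had an unadjusted edgeR p under 0.05.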

How the data were processed

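The deposited values are UMI counts for each gene and barcode, left unnormalized by the authors. The submitters' processing notes list STAR, Cell Ranger 3.0.0, Seurat 4 and mm10 without saying what each did. Each table held 1000 barcodes, and how they were picked is not stated in the labels or headers. Cells reached at most 3999 and 2996 genes at week 5 and 2999 and 6615 genes at week 0. Depth ranged from 2415001 to 6559032 UMIs a library, which limits genes of few UMIs such as Cd44.

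A cell needed 500 genes or more and no more than 10% mitochondrial UMIs (272 of 4000 removed), and 24 marked as doublets by scrublet (0.644% of those left) were dropped. Cells were clustered without the 6 genes (scanpy 1.11.5, 2000 variable genes, 30 components, 15 neighbours, Leiden resolution 1). A cluster was called microglia-like where no other class had more markers among its first 10 genes and its microglia markers summed to 10 times the next class or more. Counts were summed per library and tested with edgeR 4.0.16 (R 4.3.3; quasi-likelihood, TMM, filterByExpr, Benjamini-Hochberg over all genes, threshold 0.05), tested on simulated data. In the simulated data of the all-cell week comparison, 55% of 2-fold changes and 100% of 4-fold changes were called, with 2.01% of calls false. These changes were placed only in genes above a set level. A 2-fold change can thus go uncalled in that comparison. Intervals are exact, at the 95% level, and a count of 0 allows up to 3 counts of the total. UMIs read transcript ends and are not scaled by length. Comparisons of level between genes, such as the highest gene of a list by mean CPM, are thus of counts only.

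The members and lists were chosen with earlier results of these data known. Named are the members, the called genes and the highest other gene of each list, and the 10 genes most like Spp1. Itga4, Fn1, Tgm2 and Cd74 have further values beside their calls, and Jun was named after its value was seen. Of the 4 related phosphoprotein genes Ibsp, Dmp1, Dspp and Mepe, 0 are listed in the count tables, so they were not tested. Other scalings (DESeq2 1.42.0 among them), tests (limma-voom, limma 3.58.1), filters, thinning, resolution and left-out libraries were tried.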

Additional observations from a re-analysis of the deposited data

How the results depend on the processing

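Spp1 kept its direction and its call under all 17 alternatives in all cells (log2 fold change 6.70 to 10.1) and all 14 in microglia-like cells (6.76 to 10.2). Cd44 in all cells became called with library size alone (2.38), no gene filter (2.69), DESeq2 (2.57), the replicate block (2.54), 1000 UMIs per cell (2.45), cells over 2996 genes left out (2.32) and microglia-like clusters only (4.42), and ran from 1.44 to 4.02 with 1 library left out. In microglia-like cells Cd44 lost its call with limma-voom (4.30), ran from 2.98 to 5.40 with 1 library left out, and was too low to be tested at 1000 UMIs. Against Spp1-undetected cells, Cd44 lost its call at 1000 UMIs (1.50) and with library size alone (0.50), while DESeq2 (1.16) gave no adjusted p. Itgav lost its call there at 1000 UMIs (-1.20) and with DESeq2 (-0.68).

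In all cells 285 genes were called, 925 when genes were not filtered, 499 when cells over 2996 genes were left out and 151 to 1373 with 1 library left out. In microglia-like cells 368 were called, 835 with no gene filter, 199 at 1000 UMIs and 195 to 1469 with 1 library left out. Between Spp1-detected and undetected cells 1810 were called (1096 higher, 714 lower), 349 at 1000 UMIs, 550 with DESeq2 and 3313 with library size alone (561 higher, 2752 lower). No library could be left out there, since no residual degrees of freedom remain.

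At 1000 and 2000 UMIs per cell, 4 and 3 of 10 receptor and library pairs had the higher share in Spp1-detected cells, against 7 with all UMIs. Over all genes the share that was higher was 33.7% and 33.2% at 1000 UMIs, 30.4% and 29.7% at 2000 UMIs and 90.7% and 45.7% with all UMIs in replicates 1 and 2. Between weeks, 6 of 6 genes did not overlap at 1000 UMIs and 4 of 6 at 2000 UMIs, a depth added after seeing the data, against 2 with all UMIs. The Fabp5-led cluster held a mean of 84.6% of week 5 Spp1 UMIs.

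The labels number replicates in both weeks but do not say that a number marks a shared animal or batch, and deviations of same-numbered libraries correlated at -0.03 over 11250 genes in all cells and -0.14 over 11054 in microglia-like cells. With the replicate block 369 genes were called in all cells and 431 in microglia-like cells. With crossed numbers, chosen after seeing the data, the counts were 354 and 612.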
